A study of Rattus norvegicus with 6 samples.

Results

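The IL-6 and IL-11 cytokine family was followed in lung RNA of control and bleomycin-treated rats through 10 genes: the ligands Il6, Il11, Lif and Osm, the receptor chains Il6r, Il11ra1, Lifr, Osmr and Il6st, and the transcription factor Stat3. Every transcript that carried one of these gene names was taken, which gave 35 of the 70376 transcripts in the table of linear RNAs and 10 of its 21655 gene names. The 5 circular RNAs (circRNAs) named after Lifr, of 5216 circRNAs in all, were added. The choice rested on names and its rule used no measured value, though earlier results of these data were known. The animals were Sprague-Dawley rats that were 7 weeks old when the experiment began. The 3 pulmonary fibrosis (PF) model rats had received one instillation of bleomycin into the trachea at 7 mg/kg, the 3 control rats had received saline instead (0 mg/kg), and lung was taken from both groups on day 28. Bleomycin is an antitumour drug that breaks DNA and scars the rodent lung. One library was made per rat from lung tissue depleted of ribosomal RNA, so p-values measure the spread between rats. Neither the lobe nor the place in the lung that was sampled is given in the sources used here, and no time before day 28 was sampled.

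Cytokines of this family act through a common receptor chain, gp130, which is encoded by Il6st. IL-6 and IL-11 bind private receptors (Il6r and Il11ra1) that cannot signal on their own and that bring pairs of gp130 together. LIF joins gp130 to the LIF receptor (Lifr), and oncostatin M (Osm) joins gp130 to the oncostatin M receptor (Osmr) or to Lifr. The paired chains activate JAK kinases, which phosphorylate STAT3, and STAT3 then enters the nucleus. Both IL-6 and IL-11 are known for their part in lung inflammation and scarring, and IL-11 is secreted by fibroblasts exposed to TGF-beta. Phosphorylation of STAT3 and cytokine secretion are not seen by RNA sequencing.

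Levels are given as FPKM, a fragment density corrected for transcript length and library size. The ratio of deposited coverage to FPKM implied a scaling total between 42610900 and 48854100 per library, and the libraries held between 2037 and 2964 back-splice reads. Transcripts named after small RNAs took between 34.2% and 46.4% of the summed FPKM. Of 19203 genes tested, 293 (1.53%) passed the call rule used here, an unadjusted p of at most 0.05 from limma on log2(FPKM + 1) and an absolute log2 ratio of group means of at least 1. Of these calls 132 (0.687%) were higher and 161 (0.838%) lower in PF model rats, which became 194 higher and 138 lower when FPKM were rescaled to one total per library (TPM). By adjusted p below 0.05, limma called 2 genes (0.0104%), with 940 (4.9%) at an unadjusted p of at most 0.05, and none of the family. Markers of alveolar cells were abundant in all libraries, with the summed FPKM of 5 alveolar type 2 markers between 4244 and 6553. The sum of 4 heart muscle markers (Myh6, Myl7, Nppa and Tnnt2), which the muscle of pulmonary veins also expresses, was between 0.553 and 0.888 FPKM in control rats, 0.774 and 0.715 in model rats 1 and 2, and 11.8 in model rat 3. The part of that difference in the family's values was not tested.

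Before the values, the sequences that bear on Il11, the one tested family gene that passed the call rule, are shown. The study's quantitative PCR assay for Il11 used the following forward and reverse primers, and the primer list gives the identical pair for a second gene, Rasd1, a small GTPase.

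Il11 forward primer: gctcacctgtggcttattt
Il11 reverse primer: gtgaggaagacactgtgaatag

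The forward primer has 19 bases and the reverse primer 22. With one pair listed for both genes, the primer list does not say which transcript was amplified. For Il11 and the other RNAs it checked, the paper reports that quantitative PCR gave a pattern similar to that of sequencing. Its assays used the RNA that was also sequenced. The pair was not placed on the genome here, and the values below do not depend on it. Promoter sequences of RefSeq (build GRCr8, which need not be the build of the tables), from 250 bases before to 50 bases after the start of a gene, were found for 7 of the 10 genes and searched on both strands. The STAT motif TTCNNNGAA was in none of the 7 and in 8.87% of all 33469 promoters. The AP-1 motif TGANTCA, the site class bound by Fos and Jun proteins, was in 2 of the 7 and in 7.33% of all promoters. The windows of these 2 promoters are shown because they hold the 2 matches, with the motif in capitals.

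Il11 at chr1:78098470-78098496, plus strand: ggagggagggTGAGTCAggatgtgtca
Osmr at chr2:57688578-57688604, minus strand: gccccgcagcTGATTCAtagccggggc

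The Il11 match begins at position -142 and the Osmr match at -33 relative to the gene start. A match describes letters in a window and is not a measured binding site.

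Il11 was the only one of 8 tested family genes that passed the call rule, and it was lower in PF model rats, as were 0.838% of all genes tested. Il11 encodes interleukin 11, and its 2 annotated transcripts lie on chromosome 1 between 72635267 and 72643255 in the coordinates of the table. Its FPKM was 0.121, 0.107 and 0.122 in control rats 1, 2 and 3 and 0.0445, 0.00506 and 0 in model rats 1, 2 and 3. Every model rat lay below every control rat, as in 10.7% of all genes tested, in which the groups did not overlap in one direction or the other. The mean was 0.117 ± 0.00843 FPKM in control and 0.0165 ± 0.0243 FPKM in model rats (SD, n = 3 each), a log2 ratio of means of -2.83. Without model replicate 1 this ratio was -5.53, and with any other rat left out it lay between -2.88 and -2.24. On the log2(FPKM + 1) scale, which understates changes of low genes, the difference was -0.14 (SE 0.04, unadjusted limma p of 0.0162, adjusted p = 0.934). Il11 was part of the study's own list of differentially expressed mRNAs, which was drawn from the same 6 libraries, so its call is not independent evidence of its direction.

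These Il11 values rest on few reads. Estimated from the deposited coverage and reads of 150 bases, Il11 had 9.43, 7.65 and 10.0 reads in the control libraries and 3.61, 0.244 and 0 in the model libraries, 27.1 against 3.85 in all. In the control libraries and model library 1 all of the FPKM fell on transcript ENSRNOT00000023489, while in model library 2 it fell on ENSRNOT00000090636. Housekeeping genes such as Actb and Tbp were above 0 in all 6 libraries, so the 0 in model rat 3 does not stand for a library without estimates. Il11 passed the rule under 14 of 17 alternatives, with unadjusted p between 0.00471 and 0.0818 and adjusted p between 0.819 and 1. It missed the p threshold without model replicate 2 (unadjusted limma p of 0.0551), without model replicate 3 (0.054) and when the variance trend was left out (0.0818).

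Il6, the founding member of the family, was listed above 0 in 1 library. Its single transcript, on chromosome 4 from 3043231 to 3047807, had 0.0581 FPKM in model rat 1, which is 2.94 estimated reads, and 0 in the other 5 libraries. The gene therefore did not reach the 3 libraries above 0 that were needed for a test. A difference between levels as low as these was not detectable at this depth.

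Lif and Osm lie beside each other on chromosome 14, with 12265 bases between the end of Osm at 84470409 and the start of Lif at 84482674. Lif, a cytokine that keeps stem cells undifferentiated and is induced in injured epithelium, had 0.301, 0.697 and 0.697 FPKM in control rats and 0.362, 0.414 and 0.251 FPKM in model rats. Control rat 1 lay within the range of the model rats and the other control rats above it. The difference was -0.21 on the log2(FPKM + 1) scale (95% CI -0.51 to 0.08, limma adjusted p = 0.934). Without control replicate 1 Lif passed the call rule (unadjusted limma p of 0.00984, adjusted p = 0.891).

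Osm, a cytokine of macrophages and neutrophils, had 1.98, 0.896 and 2.01 FPKM in control rats and 3.28, 2.82 and 1.31 FPKM in model rats. The groups overlapped, since model rat 3 lay below control rats 1 and 3. The difference in log2(FPKM + 1) was 0.38 (95% CI -0.33 to 1.09, limma adjusted p = 0.934). It was 0.16 without control replicate 2, 0.21 without model replicate 1 and 0.65 without model replicate 3, where the groups did not overlap (unadjusted limma p of 0.0418, adjusted p = 0.986) and the fold threshold was not reached. Between 10.9% and 70.1% of the FPKM named Osm came from one unstranded single-exon transcript inside an intron of the gene. The annotated Osm transcript alone, ENSRNOT00000035591, had 0.674, 0.798 and 0.763 FPKM in control rats and 1.22, 1.11 and 0.391 FPKM in model rats. On this transcript model rats 1 and 2 lay above all control rats and model rat 3 below all of them.

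**Figure D1:**
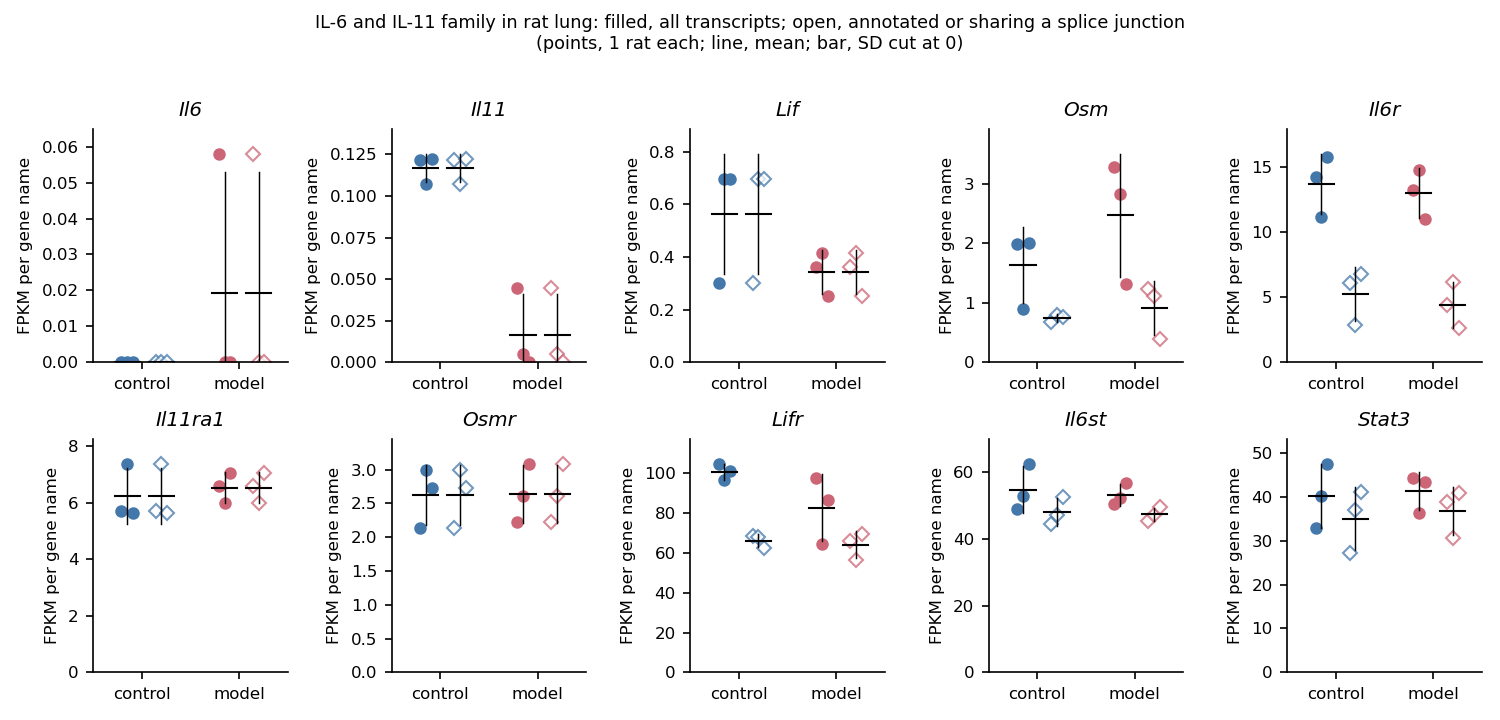
FPKM of each family gene in control and PF model rats, 1 point per rat with the mean and SD (n = 3), for all transcripts of a gene name (filled) and for those annotated or sharing a splice junction with an annotated one (open). Il11 separates the groups (0.107 to 0.122 against 0 to 0.0445 FPKM), while Il6st, Stat3, Il11ra1 and Osmr overlap.

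The private receptors were far more abundant than their ligands in every library. Il11ra1, the IL-11 receptor, had 5.70, 7.38 and 5.64 FPKM in control rats and 6.59, 5.99 and 7.06 FPKM in model rats. All model rats lay within the range of the control rats, and the difference in log2(FPKM + 1) was 0.07 (95% CI -0.25 to 0.38, limma adjusted p = 0.97). No difference in Il11ra1 thus passed the test in the rats in which Il11 was called lower.

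Il6r, the IL-6 receptor, was present in the table without an annotated transcript, so it fell outside the genes tested in the main comparison. Its 5 transcripts were 3 assembled ones that share splice junctions with the annotated gene and 2 intronic ones on the opposite strand. Together they had 14.2, 11.1 and 15.7 FPKM in control rats and 13.2, 14.8 and 10.98 FPKM in model rats. When all gene names were tested the difference was -0.07 in log2(FPKM + 1) (95% CI -0.44 to 0.31, limma adjusted p = 0.976). The intronic transcripts made up between 57.0% and 76.1% of the FPKM. The 3 transcripts that share junctions had 6.07, 2.88 and 6.76 FPKM in control rats and 4.39, 6.195 and 2.62 FPKM in model rats, with overlap between the groups (difference -0.20, limma adjusted p = 0.972).

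Osmr, the receptor chain specific to oncostatin M, had 2.14, 3.00 and 2.73 FPKM in control rats and 2.23, 2.61 and 3.09 FPKM in model rats. The values interleaved, and the difference in log2(FPKM + 1) was 0.01 (95% CI -0.36 to 0.38, limma adjusted p = 1). Osmr and Lifr are neighbours on chromosome 2, and 256941 bases separate the end of Osmr from the start of Lifr.

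Il6st, the common chain gp130, had 48.9, 53.0 and 62.6 FPKM in control rats and 50.5, 52.3 and 56.8 FPKM in model rats. All model rats lay within the range of the control rats, and the difference in log2(FPKM + 1) was -0.04 (95% CI -0.30 to 0.22, limma adjusted p = 0.985). Its direction turned to 0.046 with TPM and to 0.016 when FPKM were rescaled without small RNA transcripts. Most of its FPKM, between 80.2% and 89.5%, came from one assembled transcript, MSTRG.18803.1, which has 7681 bases, begins 10170 bases before the annotated transcript and ends 4474 bases after it. The annotated transcript ENSRNOT00000018877 of 3112 bases had between 0.0762 and 0.388 FPKM. A transcript on the opposite strand of the gene, antisense to its exons, added between 4.38 and 9.84 FPKM.

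Stat3, the transcription factor on which these receptors converge, had 32.9, 40.2 and 47.4 FPKM in control rats and 44.2, 36.3 and 43.3 FPKM in model rats. The model rats lay within the range of the control rats, and the difference in log2(FPKM + 1) was 0.05 (95% CI -0.31 to 0.41, limma adjusted p = 0.987). Its leading isoform ENSRNOT00000026760 had 14.0, 23.4 and 27.0 FPKM in control rats and 26.6, 13.8 and 32.5 FPKM in model rats, or between 37.9% and 75.0% of the FPKM named Stat3. That share was 52.6% ± 8.59 in control and 57.7% ± 18.7 in model rats (SD, n = 3 each, two-sided exact permutation p = 0.8).

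Ordered by mean FPKM over the 6 rats, Lifr was highest with 91.5, followed by Il6st with 54.0, Stat3 with 40.7, Il6r with 13.3, Il11ra1 with 6.39, Osmr with 2.63, Osm with 2.05, Lif with 0.454, Il11 with 0.0668 and Il6 with 0.00968. Neighbours in this order did not overlap, except Osmr with Osm and Il11 with Il6. With transcripts limited to annotated ones and those that share a junction, Il6r dropped to 4.82 and overlapped with Il11ra1 and Osmr, and Osm dropped to 0.827 and overlapped with Lif. Lifr, Il6st and Stat3 stayed above all others with 65.0, 47.8 and 35.9 FPKM. Among all genes tested, Lifr was above 98.7%, Il6st above 97.3% and Stat3 above 96.1% by mean FPKM, whereas Lif was above 20.3% and Il11 above 5.45%. By annotated and junction-sharing transcripts gp130 exceeded Il11ra1 between 6.38 and 9.35 times in each rat. This ratio was 7.85 ± 1.49 in control and 7.27 ± 0.525 in model rats (SD, n = 3 each, two-sided exact permutation p = 0.7). In bulk tissue, fewer cells of a type and less RNA per cell cannot be told apart, and the cells that made each transcript are not known.

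**Figure D2:**
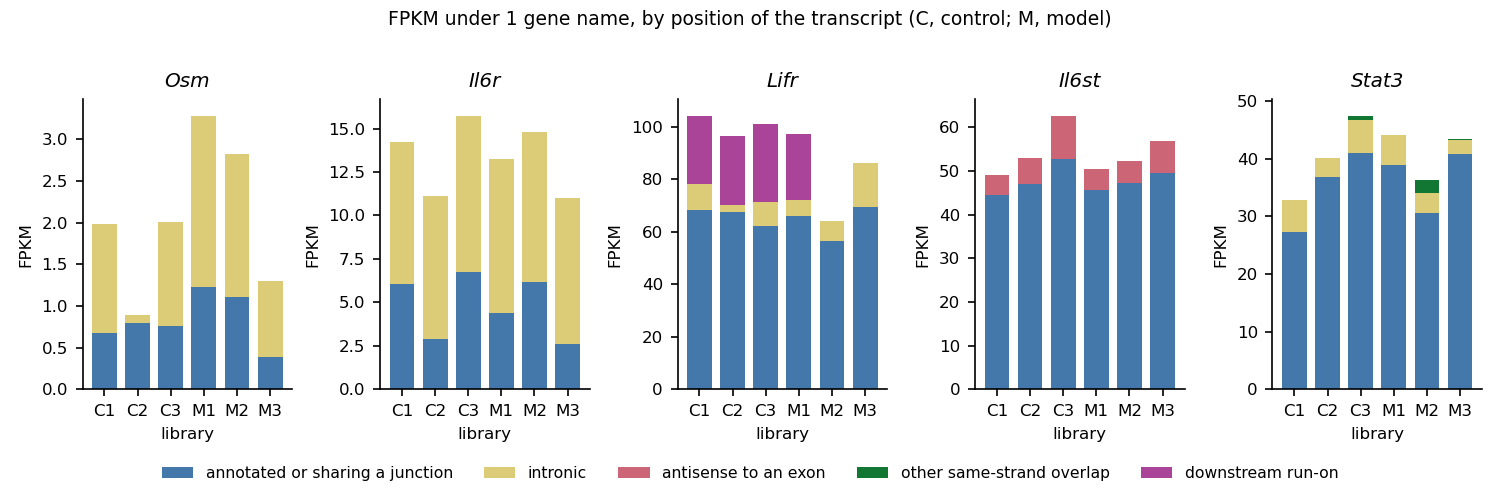
FPKM under 5 gene names in each library (C, control; M, model), stacked by where a transcript lies relative to the annotated gene. Intronic transcripts make up most of Il6r and, outside control library 2, of Osm, and the downstream transcript of Lifr is present in 4 libraries and absent in model libraries 2 and 3.

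Lifr, the LIF receptor, had the highest level of the family and 7 transcripts. Their sum was 104.2, 96.4 and 101.2 FPKM in control rats and 97.2, 64.1 and 86.2 FPKM in model rats, with a difference in log2(FPKM + 1) of -0.30 (95% CI -0.67 to 0.07, limma adjusted p = 0.934). Model rats 2 and 3 lay below all control rats and model rat 1 within their range. The difference was -0.43 without model replicate 1 (unadjusted limma p of 0.0271, under the fold threshold) and -0.13 without model replicate 2. The annotated transcript and the 3 that share its junctions summed to 68.5, 67.7 and 62.2 FPKM in control rats and 65.9, 56.3 and 69.4 FPKM in model rats. For these the difference was -0.05 (95% CI -0.29 to 0.19, limma adjusted p = 0.974), and the groups overlapped.

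Both sums differ by 3 transcripts. The 2 intronic ones, on the opposite strand, summed to 9.80, 2.58 and 9.22 FPKM in control rats and 6.31, 7.80 and 16.8 FPKM in model rats, and the groups overlapped. The third, MSTRG.18955.1, lies downstream of the gene and is a single exon of 10769 bases that begins 86 bases after the annotated end of Lifr on the same strand. It had 25.9, 26.1 and 29.8 FPKM in control rats and 24.9, 0 and 0 FPKM in model rats, and it passed the call rule for transcripts (unadjusted limma p of 0.0495, adjusted p = 0.945). It was 1 of 2 called among 31 tested family transcripts, the other being Il11 ENSRNOT00000023489, against 2.98% of 64867 transcripts tested (1.76% lower, 1.22% higher, and 0.0277% by adjusted p below 0.05). Groups did not overlap for 3 of the 31, these 2 and Osmr ENSRNOT00000040847, against 10.4% of all transcripts. Leaving out single libraries moved its p between 3.03e-07 and 0.143, and the call was kept in the one case without model replicate 1.

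The same stretch of chromosome 2 was listed a second time on the opposite strand, from 56489505 to 56500269, as a transcript without a gene name. This second listing had 25.9, 26.1 and 0 FPKM in control rats and 25.0, 21.1 and 24.1 FPKM in model rats. In the 3 libraries with both strands above 0 the values of both strands differed by at most 0.0914%, and in the other 3 libraries one strand held all of the signal. Model rats 2 and 3, where the transcript named Lifr stood at 0, were thus libraries in which the stretch was listed on the opposite strand, and control rat 3 was the reverse. Taking the higher of both strands gave 25.9, 26.1 and 29.8 FPKM in control rats and 25.0, 21.1 and 24.1 FPKM in model rats. All model rats lay below all control rats, with means of 27.3 ± 2.16 and 23.4 ± 2.02 (SD, n = 3 each, two-sided exact permutation p = 0.1, the smallest that 3 against 3 allows). This measure was made after the data were seen, and groups did not overlap for 10.4% of all transcripts tested. With the higher of both strands in place of the listed value, Lifr had 104.2, 96.4 and 101.2 FPKM in control rats and 97.2, 85.2 and 110.2 FPKM in model rats, and the groups overlapped (exact permutation p = 0.8). Without the downstream transcript, mean Lifr was 73.3 ± 4.34 FPKM in control and 74.2 ± 11.2 FPKM in model rats (exact permutation p = 0.8). The labels name a stranded library kit, while the study's methods name an mRNA kit without saying whether strand was kept.

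**Figure D3:**
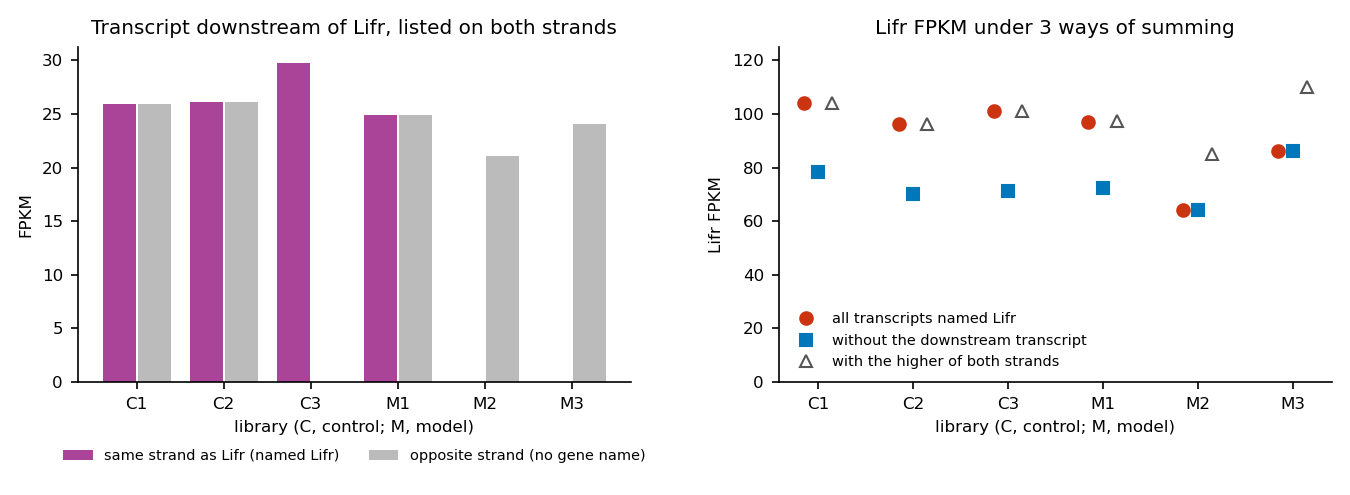
Left, FPKM of the stretch downstream of Lifr on each strand in each library. Right, Lifr FPKM summed over all transcripts, without the downstream one, and with the higher of both strands in its place. In control libraries 1 and 2 and model library 1 both strands carry the same value, and in the others only one strand is above 0. Only the plain sum puts model libraries 2 and 3 (64.1 and 86.2 FPKM) below all controls.

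Isoform shares varied widely between rats of one group. The annotated Lifr transcript ENSRNOT00000016036 had 51.3, 59.3 and 12.05 FPKM in control rats and 58.6, 48.8 and 27.99 FPKM in model rats. In control rat 3, where it was lowest, MSTRG.18953.4, an isoform that begins inside the annotated one, had 34.3 FPKM, and in the other rats between 1.51 and 17.0. The junction-sharing sum of the gene was nonetheless between 56.3 and 69.4 FPKM in all 6 rats. In Il11ra1 the assembled isoform MSTRG.27819.1 held between 53.5% and 100% of the FPKM, with the annotated ENSRNOT00000020885 above 2 FPKM in control rat 3 and model rat 2 alone. In Osmr the assembled MSTRG.18952.1 held 95.7%, 65.9% and 95.7% in control and 70.4%, 68.0% and 68.9% in model rats. Over 7 genes with a leading isoform that could be compared, no two-sided exact permutation p was below 0.4, and all were 1 after Benjamini-Hochberg adjustment.

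Lifr also gave one of the most abundant circular RNAs in the data. A circRNA is made when a splice donor joins an upstream acceptor, and it is counted by the reads that cross this back-splice. circRNA920, which covers 3 exons of Lifr from 56451097 to 56456188 on the plus strand of chromosome 2, had 70 back-splice reads in all, rank 9 of 5216, and was found in all 6 rats. It held 92.1% of the 76 back-splice reads of Lifr. The other 4, ciRNA118, ciRNA322, circRNA2614 and circRNA921, had 1, 1, 2 and 2 reads, each in a single library.

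circRNA920 had 13, 10 and 22 reads in control rats and 10, 4 and 11 in model rats. The raw counts overlapped, since control rat 2 equalled model rat 1. The log2 fold change was -0.77 (edgeR quasi-likelihood, unadjusted p of 0.14, adjusted p = 0.985), so it was not among the 12 called circRNAs (5.31% of 226 tested, and 0.442% by adjusted p below 0.05). Leaving out control replicate 3, which had the most reads, moved the fold change to -0.47 (edgeR adjusted p = 0.964). DESeq2 gave a log2 fold change of -0.80 (adjusted p = 0.994).

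Per 1000 back-splice reads of the library, Lifr had 5.78, 5.04 and 8.999 in control rats and 4.07, 2.45 and 3.71 in model rats. On this scale all model rats lay below all control rats. How often circRNAs or their host genes separate the groups in this way was not computed. The means were 6.61 ± 2.11 and 3.41 ± 0.848 (SD, n = 3 each, two-sided exact permutation p = 0.1, the smallest possible). With raw counts the groups overlapped (exact permutation p = 0.2), as they did with the authors' normalized values (exact permutation p = 0.3). Divided by the FPKM of all linear transcripts named Lifr, the values were 0.0555, 0.0523 and 0.0890 in control rats and 0.0419, 0.0383 and 0.0431 in model rats, again without overlap (difference -0.0245, exact permutation p = 0.1, the smallest possible). Without control replicate 3, the highest, this difference was -0.0128 and that per 1000 back-splice reads -1.998 in place of -3.19. Divided by the linear FPKM of transcripts that are annotated or share a junction, the values were 0.0844, 0.0745 and 0.145 in control rats and 0.0617, 0.0436 and 0.0535 in model rats. These too did not overlap (exact permutation p = 0.1, the smallest possible), whereas with the annotated transcript alone as the divisor they did (exact permutation p = 0.4). All of these ratios divide the same back-splice values, so they are not independent of one another. Of the other family genes, Il6r had 1 circRNA with 7 reads, Stat3 1 with 2 reads and Osmr 1 with 1 read.

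**Figure D4:**
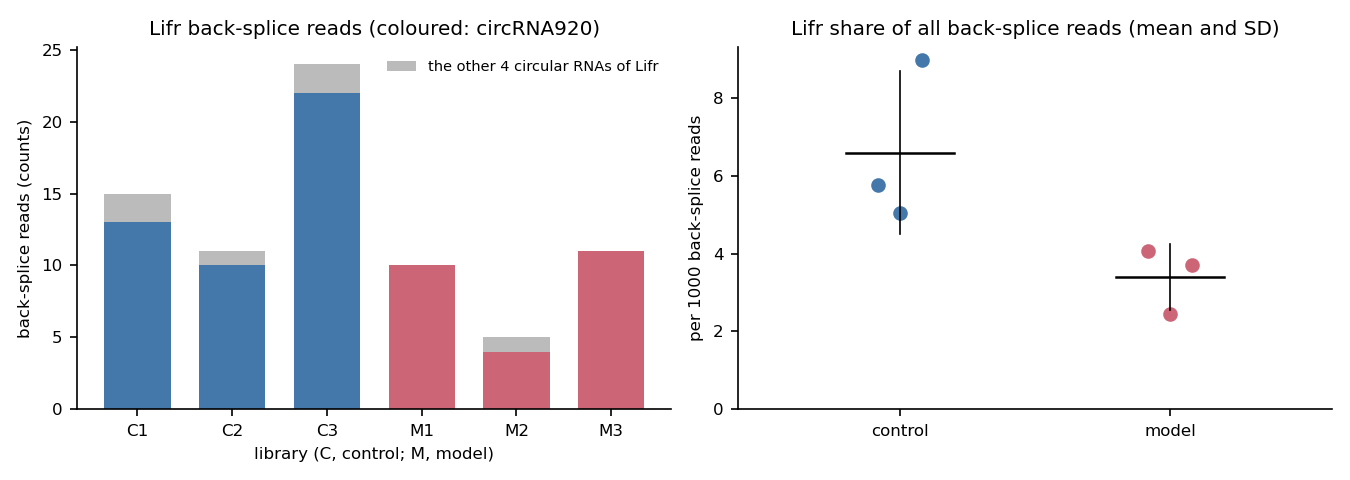
Left, counts of Lifr back-splice reads in each library, with circRNA920 in colour and the other 4 in grey. Right, Lifr back-splice reads per 1000 back-splice reads of the library, 1 point per rat with the mean and SD (n = 3). Control values lie between 5.04 and 8.999 and model values between 2.45 and 4.07.

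Other ligands and receptors of the gp130 family were examined as a list of 10 genes. Of these, 8 were tested and 1 was called, lower in PF model rats, against 0.838% of all genes tested called lower. With 8 genes, 1 call is too few to set the list apart. This was Cntf, ciliary neurotrophic factor, with 0.612, 0.753 and 0.523 FPKM in control rats and 0, 0.348 and 0 FPKM in model rats (difference -0.56 in log2(FPKM + 1), SE 0.13, unadjusted limma p of 0.00483, adjusted p = 0.934). Cntf was called with each rat left out in turn, at a limma adjusted p of 0.488 or more each time. These fits reuse the same rats, and the reads behind its low FPKM were not estimated. Ctf1, cardiotrophin 1, had 2.96, 3.26 and 2.80 FPKM in control rats and 3.44, 3.13 and 3.53 FPKM in model rats, with overlap between the groups (unadjusted limma p of 0.321). Cntfr, the receptor that binds ciliary neurotrophic factor, had an unadjusted limma p of 0.371. The list's median difference was -0.01, the same to 2 decimals as over all genes tested, and 4 of the 8 differences were positive.

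None of the 13 tested signal transducers and none of the 8 tested inhibitors was called, against 1.53% of all genes tested. Among transducers the smallest limma p-values were 0.157 for the adaptor Grb2, 0.2 for the kinase Jak2 and 0.273 for the adaptor Shc1. Among inhibitors they were 0.0725 for the phosphatase Ptpn6, 0.172 for Socs2 and 0.192 for Cish, both suppressors of cytokine signalling. Ptpn6, which is expressed in blood cells, had 15.8, 19.7 and 15.5 FPKM in control rats and 19.4, 23.8 and 19.2 FPKM in model rats. The summed FPKM of the 8 inhibitors was between 87.4 and 90.7 in control and between 92.8 and 95.2 in model rats, without overlap. How often the sum of such a list separates the groups was not computed. Socs3, which STAT3 induces and which blocks gp130, had 8.07, 7.85 and 8.11 FPKM in control rats and 8.22, 9.22 and 5.38 FPKM in model rats (unadjusted limma p of 0.621), and is named for this role after its values were seen. The 2 sheddases of the IL-6 receptor, Adam10 and Adam17, had limma p-values of 0.173 and 0.46. Grb2, Cish and Adam10 were lower in every model rat than in every control rat. Groups did not overlap in 10.7% of all genes tested, in one direction or the other.

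**Figure D5:**
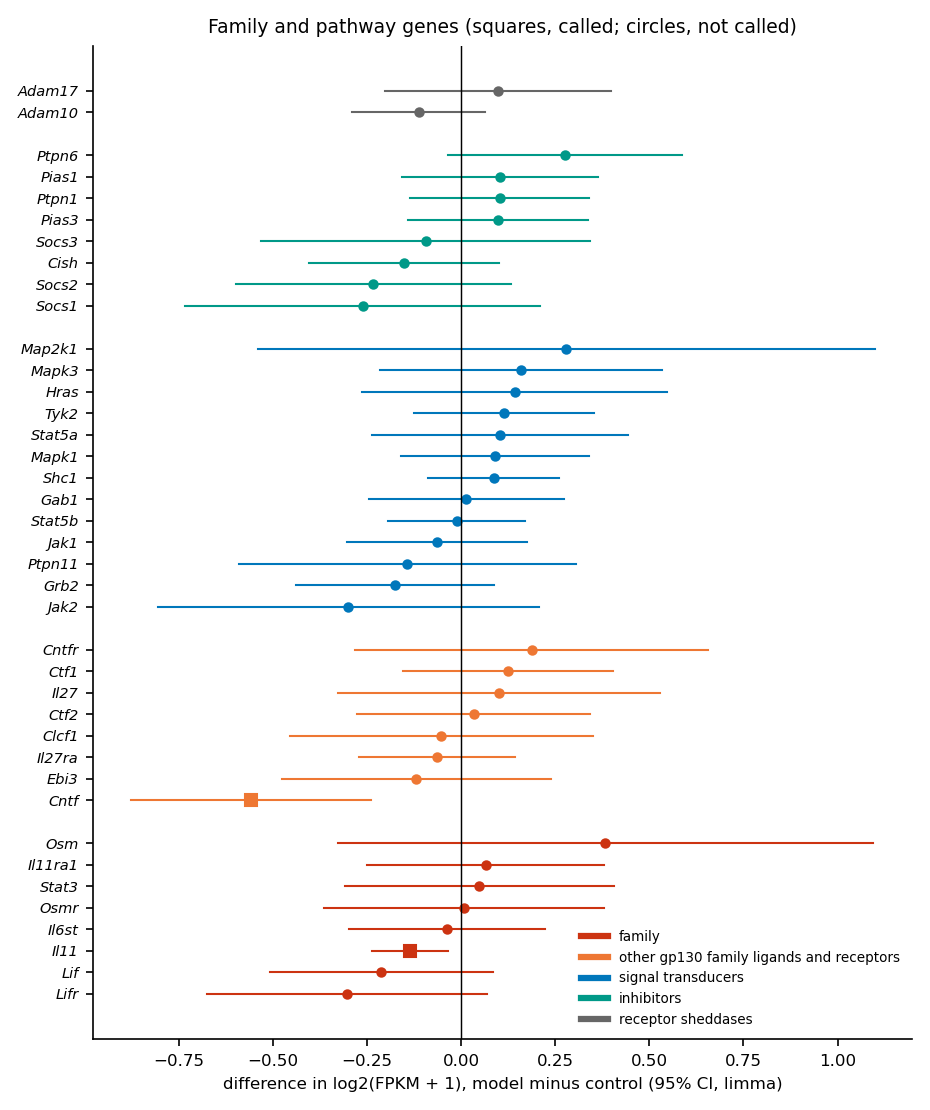
Difference in log2(FPKM + 1), model minus control, with the 95% CI from limma, for each tested gene of the family and of 4 lists of the pathway. Il11 (-0.14) and Cntf (-0.56) are called and drawn as squares, and the intervals of all other genes drawn include 0, while Il6 and Il6r were outside the genes tested and are not drawn.

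Of 28 genes taken as STAT3 targets, 24 were tested and none was called, which at 1.53% of all genes does not set the list apart. Hif1a, a regulator of the response to low oxygen, had 14.1, 13.8 and 14.5 FPKM in control rats and 12.1, 13.0 and 11.2 FPKM in model rats (difference -0.21, unadjusted limma p of 0.0411, adjusted p = 0.934) and was under the fold threshold. Icam1, an adhesion molecule, was at unadjusted limma p of 0.0751 and Birc5, an inhibitor of apoptosis, at unadjusted limma p of 0.0922. The median difference of the list was -0.03, with 10 positive and 14 negative.

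The paper judged its model established from Masson staining, with fibrous nodules in model lungs and little collagen in the septa of controls. Staining was not examined here. At the RNA level 16 genes of fibrosis were followed and none was called, which at 1.53% of all genes does not set this list apart either. Col3a1, a fibrillar collagen, had 174, 178 and 154 FPKM in control rats and 189, 204 and 233 FPKM in model rats, with no overlap (difference 0.30, unadjusted limma p of 0.0365, adjusted p = 0.934). Eln, elastin, differed by -0.25 (unadjusted limma p of 0.0456) and Lox, which crosslinks both proteins, by -0.20 (unadjusted limma p of 0.0736). Lox did not overlap either, in the opposite direction to Col3a1. It had 17.4, 16.2 and 15.4 FPKM in control rats and 14.6, 12.8 and 15.0 FPKM in model rats. Groups did not overlap in 10.7% of all genes tested, in one direction or the other. The median difference of the list was 0.13, with 11 positive and 5 negative.

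For the few family genes that the naming rule covered, the genes most like them across the 6 rats were found by the correlation of log2(FPKM + 1) among genes with a mean of at least 1 FPKM. For Il11 these were Prpf38b, Smchd1 and AABR07066180.1 (Pearson r between 0.983 and 0.989), of 13896 genes compared. For Il6st they were Ugt1a9, St8sia1 and Smg1 (r between 0.985 and 0.998) and for Stat3 RF00049, Gle1 and Tmem131 (r between 0.982 and 0.986). The gene at rank 100 still had r of 0.919, 0.918 and 0.892, so with 6 rats many genes follow such a pattern, and the points share library and depth.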

How the data were processed

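Lung RNA of 3 control and 3 PF model rats was sequenced, and samples were grouped by their labels. The submitters' notes name HISAT2, StringTie and TopHat, and the methods name Cutadapt, Bowtie2, Tophat2, StringTie, Ballgown, Tophat-fusion and CIRCexplorer. The genome build is not given in the sources used here. The authors deposited FPKM and mean per-base coverage, a signal not scaled for library size, for each transcript. The authors also deposited raw counts of back-splice reads and SRPBM, a normalized signal, for each circRNA. All 24 measurement columns were mapped to samples and 0 were left unmapped. The unnamed transcript on the opposite strand downstream of Lifr and the Lifr sums that use it were added after the data were seen.

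FPKM were summed per gene name. Gene names with an annotated transcript and FPKM above 0 in at least 3 samples were tested on log2(FPKM + 1) by limma 3.58.1, run in R 4.3.3 with a trend in the variance and two-sided. The p-values were adjusted over all genes by Benjamini-Hochberg. Transcripts were compared in the same way. For circRNAs with at least 10 back-splice reads, edgeR 4.0.16 (quasi-likelihood, TMM) was the main test and DESeq2 1.42.0 an alternative. Exact permutation tests served for single values. Reads per gene are estimates and carry no counting interval. Simulated data with known changes were used to try the limma test of genes and the edgeR test of circRNAs. Changes were set only in genes with a mean FPKM far above that of Il11, so genes as low as Il11 were not covered. The simulated circRNAs varied less than those in the data. The exact permutation tests were not simulated. The genes named are all family members, every Lifr circRNA, and in each pathway list the 3 genes with the smallest p and any called gene, with Il11, Il6st and Stat3 given their most similar genes. An item of the pathway lists is not reported here and was left out of its list's counts. Members, lists and rules were chosen with earlier results of these data known. Alternatives were other pseudocounts, filters, scalings, sums, a replicate block and leaving out each rat. Scripts used Python 3.11.15 with pandas 2.3.3, numpy 2.4.6 and matplotlib 3.10.9.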

Additional observations from a re-analysis of the deposited data

How the results depend on the processing

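In 12 recomputations a count of calls moved by over 1.5 times, and these are given here. In the other 67 a count stayed within 1.5 times, or a Lifr back-splice difference kept its sign but not always its size. The 293 genes called became 519 with annotated transcripts only and ranged from 302 to 396 with 1 rat left out. The 12 called circRNAs became 24 with no filter, 4 with at least 20 reads, 2 with the replicate block and 5 with DESeq2, with a range from 7 to 15 when 1 rat was left out (7 without model replicate 2 and without model replicate 3). The number of family genes called, 1 in the main comparison, became 0 at a mean FPKM of at least 0.1, where Il11 is no longer tested, and 0 without the variance trend, and ranged from 0 to 2 with 1 rat left out. It was 2 without control replicate 1, where Lif was called too. Transcript calls ranged from 2084 to 2498.

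The direction of Il6st (-0.04) turned to 0.046 with TPM, 0.016 without small RNA transcripts and 0.12 with annotated transcripts only, and with 1 rat left out it ranged from -0.11 to 0.060. Lifr turned from -0.30 to 0.36 with annotated transcripts only. In the other direction, it was -0.47 with the sum weighted by length (unadjusted limma p of 0.0434, adjusted p = 0.928). With that sum, and when scaled by median ratio, the Lifr groups did not overlap. Both settings include the downstream transcript. In the main comparison 10.7% of all genes tested did not overlap. Osmr turned from 0.01 to -0.063 with the sum weighted by length and ranged from -0.092 to 0.091 with 1 rat left out, and Stat3 from -0.085 to 0.17. None of these passed the call rule. The share of the leading isoform of Il6r differed by 0.649 percentage points and turned to -0.645 when weighted by length. With 1 rat left out this share ranged from -1.99 to 3.94 for Il6r, from -15.3 to 12.5 for Il11ra1 and from -3.61 to 14.9 for Stat3. Lifr back-splice reads per 1000 (difference -3.19) ranged from -3.98 to -1.998 with 1 rat left out. Divided by the FPKM of all Lifr transcripts (difference -0.0245) they ranged from -0.0312 to -0.0128, and with other divisors the difference was -0.0483 (annotated and junction-sharing transcripts) and -0.231 (annotated transcript only).

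Rats with the same number did not deviate together (correlations of 0.0729, 0.0325 and -0.0754 over 13890 genes). For rats with different numbers the correlations lay between -0.139 and 0.101. With so few rats this cannot exclude that the numbers pair them. With the replicate block 311 genes, 1 family gene (Il11, unadjusted limma p of 0.0406) and 1943 transcripts were called. Lifr back-splice reads then differed by -3.19 (exact sign-flip p = 0.25). This is the smallest p that the sign-flip test allows when rats are paired by number. The cause of these changes was not tested. Depth limits Il6 and Il11, with fewer than 11 estimated reads in any library, and Lifr back-splice reads, with 5 to 24 per library.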

Other observations

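Single-exon transcripts listed on both strands at the same place, as downstream of Lifr, were found at 30 places in the table when both ends had to lie within 10 bases. Among 137 values of a library with both strands above 0 there, 116 (84.7%) differed by at most 1%. The summed FPKM of 3 mast cell markers (Cpa3, Kit and Ms4a2) was between 27.9 and 32.0 in control and between 33.5 and 37.9 in model rats, and most of it was Kit, the receptor of stem cell factor, with 30.0, 28.1 and 25.0 FPKM in control and 30.9, 34.3 and 32.4 FPKM in model rats (unadjusted limma p of 0.0441, adjusted p = 0.934), which did not overlap, as in 10.7% of all genes tested. The other 2 markers had lower means in model rats and overlapped between groups, Cpa3 with 2.56 FPKM in control and 2.47 FPKM in model rats and Ms4a2 with 0.163 FPKM and 0.0656 FPKM (unadjusted limma p of 0.797 and 0.129). Mast cells are given here because theirs was the only cell type list whose summed FPKM did not overlap between groups. Among the pathway lists, the sum of the inhibitors did not overlap either. Whether the sum of the mast cell markers reflects mast cells was not tested.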
